A study of Mus musculus with 26 samples.

Results

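The subject is a set of 10 genes known as transcriptional targets of p53, the transcription factor encoded by Trp53. They are Cdkn1a, Mdm2, Trp53inp1, Ccng1, Bbc3, Bax, Sesn2, Phlda3, Zmat3 and Btg2, and they were chosen by name because p53 acts upstream of Dux, a double homeobox factor of the 2-cell embryo. All 10 were in the count table of 55291 genes, and all 10 were among the 20953 genes that passed the filter on low counts. Poly(A) RNA was sequenced from mouse R1 embryonic stem cells (ESCs) kept in medium with LIF on gelatin, in 26 libraries that form 13 groups of 2 replicates.

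The wild-type groups were ESC, which received no treatment, and DMSO, the vehicle control, for which no time is given. Other wild-type cells received 0.53 uM retinoic acid (RA) for 48 h or 4 nM pladienolide B (PlaB), an inhibitor of the SF3B splicing complex, for 4 days. Transgene groups were named Zscan4 OE, Dux OE and DuxR70A OE, where OE is overexpression switched on by 4 ug/mL doxycycline for 24 h and DuxR70A is a Dux mutant that carries the R70A substitution. Cells with knockdown of Dux by shRNA (Dux KD) were given RA, PlaB or, by their titles, the Zscan4 transgene. Cells with knockout of the super-enhancer at the Tdpoz gene cluster (SE KO) were given RA, PlaB or the Dux transgene. The labels of the Dux KD Zscan4 OE libraries name no doxycycline and no time. Doxycycline-treated cells without a transgene, uninduced transgenic cells and cells with a control shRNA were not analysed here. The study took its shRNAs against Dux from earlier work, and which of them these libraries carry and the number of clones of the SE KO line are not given in the sources used here.

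In an unstressed cell, the ubiquitin ligase Mdm2 keeps p53 at a low level, and damage or other stress frees p53 to bind DNA at paired half-sites and to activate its targets. One of those targets is Mdm2 itself, which closes a negative feedback loop. Other targets halt the cell cycle, start death through the mitochondria or adjust growth signalling. In mouse ESCs, p53 is abundant, and it is known to activate Dux after DNA damage.

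Library totals lay between 14401452 and 39402840 counts, and 3 counts, the level below which no fold change is given, came to 0.0796 to 0.226 CPM, the count scaled by library size. Every member lay far above that level in every library, the lowest value being 3.29 CPM for Bbc3. No replicate pair agreed within sampling noise, and 2 pairs stood apart from the rest, with a chi-square per degree of freedom of 30.2 in SE KO PlaB and 26.1 in Dux KD Zscan4 OE against 1.55 to 9.81 elsewhere. The study calls the replicates of some SE KO comparisons biological. For the other groups, nothing in the labels says that replicates came from separate cultures, so the spread behind their p-values may be technical. That spread was estimated over all groups together, not from the libraries compared alone. For SE KO PlaB and Dux KD Zscan4 OE, the SE and p-values given below may therefore be too small. One library titled SE KO RA (replicate 1) carries the genotype label WT. The members' calls and the Trp53 values that rest on it are given with and without it. The ESC markers were detected in every group, at a summed level of 1262 to 5123 CPM, while the summed level of the primitive endoderm markers was 69.6 to 73.5 CPM in RA, 109 to 116 in SE KO PlaB and 4.83 to 6.58 in DMSO. Their part in the results was not tested. In bulk RNA, fewer cells of a type and less RNA per cell cannot be told apart.

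Dux itself (Duxf3 in the table, a gene with near-identical copies, so its reads are uncertain) was measured at 9.25 and 8.21 CPM in PlaB and at 0.0590 and 0 in Dux KD PlaB. It lay at 2.16 and 2.75 CPM in RA against 0.919 and 0.354 in Dux KD RA, and at 1.75 and 0.923 in Zscan4 OE against 0.0649 and 0 in Dux KD Zscan4 OE. The gene was lower in the Dux KD libraries than in wild-type cells in all 3 settings. The adjusted p values were 7.12e-11, 0.00154 and 0.000181 (edgeR quasi-likelihood test, Benjamini-Hochberg adjustment, as for every adjusted p here). Under PlaB and with the Zscan4 transgene, the Dux KD libraries held fewer than 3 counts of it. Without a control shRNA, infection and loss of Dux cannot be told apart. In the Zscan4 setting, transgene level, doxycycline and time cannot be separated from them either. The Dux OE libraries held 4.01 and 3.24 CPM and both DuxR70A OE libraries held 0, so this row could not be used to check the mutant transgene. The deletion in the SE KO line lies outside the members and was not checked here.

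The 10 genes are protein coding and scattered over 7 chromosomes. On mm10, as given by the count table and identical in GENCODE M21, Cdkn1a lies at chr17:29090976-29100727 on the plus strand, Mdm2 at chr10:117688875-117710758 on the minus strand, Ccng1 at chr11:40748552-40755311 on the minus strand and Btg2 at chr1:134075170-134079120 on the minus strand. Bbc3 lies at chr7:16308393-16318205 on the plus strand, Bax at chr7:45461697-45466898 on the minus strand, Phlda3 at chr1:135766119-135769136 on the plus strand and Trp53inp1 at chr4:11156431-11174379 on the plus strand. Sesn2 lies at chr4:132492032-132510501 and Zmat3 at chr3:32334792-32366014, both on the minus strand. Cdkn1a, Bax and Sesn2 overlap other annotated genes (AC167363.2, Gm45808 and Gm12981), and as no strand setting of the counting is stated, their reads could include those of the overlapping gene.

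Promoter windows of 300 bases, from 250 before to 50 after the transcription start, were available from RefSeq (GRCm38.p6) for 8 of the 10 members, and Trp53inp1 and Zmat3 had no entry. The windows were searched for the consensus p53 half-site, a palindromic 10-base motif that reads the same on both strands. At least 1 half-site was found in 4 of these 8 genes, and 9.55% of the 27025 genes with a window had one. Cdkn1a was the only one of the 4 with 2 half-sites no more than 13 bases apart, an arrangement that 0.0731% of all 32851 windows held. Both lay in its window at chr17:29090729-29091028, and its other window, chr17:29093519-29093818, held 0 half-sites. No half-site was found in the windows of Bbc3, Sesn2, Phlda3 and Btg2, which says only that this motif is not in these letters. For Bbc3, Phlda3 and Btg2, the last 30 bases of the window were in no GENCODE M21 transcript of the gene, so the RefSeq start used there was not matched to that annotation. The stretches that hold the matches are printed 5′ to 3′ on the gene's strand, with the half-sites in capitals. They show how the first window of Cdkn1a differs in these letters from those of Mdm2, Ccng1 and Bax.
Cdkn1a, chr17:29090881-29090962, plus strand: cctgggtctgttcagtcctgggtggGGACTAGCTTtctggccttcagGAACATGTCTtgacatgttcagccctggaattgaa
Mdm2, chr10:117710910-117710969, minus strand: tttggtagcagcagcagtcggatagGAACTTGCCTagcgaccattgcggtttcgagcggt
Ccng1, chr11:40755437-40755496, minus strand: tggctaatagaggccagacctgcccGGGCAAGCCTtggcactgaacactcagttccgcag
Bax, chr7:45467065-45467124, minus strand: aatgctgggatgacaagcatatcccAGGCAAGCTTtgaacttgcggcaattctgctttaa
The 2 half-sites of Cdkn1a begin at -73 and -51 from the transcription start of the first window and are 12 bases apart. Only exact matches were marked. The 10 bases right after the second half-site miss the motif only at their first base and are not in capitals. The single half-sites of Mdm2, Ccng1 and Bax begin at -186, -185 and -201. A match is a description of the sequence, and binding of p53 was not measured here.

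In untreated ESCs, levels per length of exon (RPKM) were highest for Bax and Ccng1, at 83.8 and 80.8 RPKM. Phlda3, Trp53inp1 and Sesn2 followed at 45.5, 34.8 and 31.8 RPKM, then Zmat3, Mdm2, Btg2 and Cdkn1a between 28.6 and 17.4, and Bbc3 was lowest at 8.16 RPKM. In PlaB, Mdm2 was the highest of the 10 at 274 RPKM, followed by Bax, Cdkn1a and Ccng1 between 139 and 141, and Bbc3 was again the lowest at 1.59 RPKM. All other levels below are in CPM and are compared within a gene only.

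Cdkn1a encodes p21, an inhibitor of cyclin-dependent kinases that halts the cell cycle. It was measured at 64.5 and 59.3 CPM in the ESC libraries, 74.3 and 72.9 in DMSO, 114 and 119.8 in RA and 499 and 496 in PlaB. SE KO PlaB came next below PlaB at 220.5 and 306 CPM, then SE KO RA at 180.5 and 174 and Dux KD PlaB at 123 and 127. The transgene groups Dux OE, DuxR70A OE and Zscan4 OE held 90.1 and 87.5, 121 and 104 and 55.01 and 64.03 CPM. The lowest group was Dux KD Zscan4 OE at 40.8 and 30.6 CPM, and SE KO Dux OE and Dux KD RA lay at 70.4 and 81.6 and 58.5 and 56.03. With the 13 groups in order of mean level, the replicates of 4 of the 12 neighbouring pairs overlapped (RA with DuxR70A OE, SE KO Dux OE with DMSO, ESC with Zscan4 OE, and Zscan4 OE with Dux KD RA), and the PlaB libraries stood above all others.

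Mdm2, the ubiquitin ligase of the feedback loop, was measured at 1343 and 1446 CPM in PlaB and at 71.3 and 65.5 in DMSO, its highest and lowest groups, whose means differed 20.4-fold. ESC held 115 and 121 CPM and RA 129 and 119.7. The next highest groups after PlaB were SE KO PlaB at 469 and 397, DuxR70A OE at 263 and 301, Dux KD PlaB at 244 and 239.8 and Zscan4 OE at 238 and 233 CPM. Dux KD RA held 234 and 231 CPM, Dux KD Zscan4 OE 153 and 182, Dux OE 136 and 145, SE KO Dux OE 139 and 126 and SE KO RA 95.6 and 96.8. The overlapping neighbours in that order were Zscan4 OE with Dux KD RA, and the run Dux OE, SE KO Dux OE, RA and ESC.

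Btg2 encodes an antiproliferative partner of the CCR4-NOT deadenylase, and Ccng1 encodes cyclin G1, which brings a phosphatase to Mdm2. Btg2 lay at 34.3 and 31.1 CPM in DMSO, 60.7 and 58.9 in ESC, 78.6 and 79.8 in RA and 317 and 289 in PlaB. SE KO PlaB, at 272 and 329 CPM, overlapped PlaB, and Dux KD PlaB at 179.9 and 179 lay below both. Ccng1 lay at 138 and 138 CPM in DMSO, 286 and 282 in ESC, 486 and 474 in RA and 453 and 525 in PlaB, with RA and PlaB overlapping. Its highest group was SE KO PlaB at 810.1 and 723 CPM. The remaining groups lay between 50.1 and 127 CPM (means) for Btg2 and between 249 and 464 for Ccng1, lowest in SE KO RA for both genes.

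Bbc3 (Puma) and Bax are the members that act on the mitochondrial route to apoptosis, Bbc3 by binding the Bcl2 family and Bax by forming pores in the outer membrane. Bbc3 lay at 18.9 and 15.8 CPM in ESC, 15.5 and 17.3 in DMSO and 8.19 and 10.3 in RA, and at 3.29 and 3.45 in PlaB, below every other library. In Dux KD PlaB and SE KO PlaB it was at 29.2 and 31.6 and 26.7 and 29.8 CPM, and these groups overlapped with each other and, for Dux KD PlaB, with the highest group, DuxR70A OE, at 33.9 and 30.2. Bax showed the opposite order in PlaB, with 232 and 211 CPM above every other library, against 133 and 131 in ESC and 83.7 and 78.5 in DMSO. Dux KD PlaB held 81.02 and 77.5 CPM of Bax and SE KO PlaB 67.1 and 97.2, both overlapping DMSO. The lowest mean of Bax was that of RA, at 68.4 and 63.5 CPM. Of the 12 neighbouring pairs of groups, 7 overlapped for Bbc3 and 8 for Bax.

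Trp53inp1 encodes a nuclear protein that promotes p53 activity and cell death, and Phlda3 a protein with a pleckstrin homology domain that competes with Akt for membrane lipids. Trp53inp1 lay at 125 and 122 CPM in DMSO, its lowest group, 225 and 226 in ESC, 337 and 317 in RA and 341 and 409.5 in PlaB. It was highest in SE KO PlaB at 1122 and 879 CPM, followed by Zscan4 OE at 607 and 607 and Dux KD PlaB at 605 and 593. Phlda3 lay at 70.2 and 71.6 CPM in ESC, 23.8 and 23.03 in DMSO and 19.04 and 17.97 in PlaB, its lowest group. It too was highest in SE KO PlaB, at 105 and 157 CPM, and next in Dux KD PlaB at 82.2 and 84.2. The replicates of SE KO PlaB differed for this gene 1.49-fold.

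Sesn2 encodes a stress-induced inhibitor of growth signalling through mTOR, and Zmat3 a zinc-finger protein that binds RNA and affects splicing. Sesn2 varied least over the study, 3.00-fold between its highest mean in SE KO PlaB (248 and 223 CPM) and its lowest in SE KO RA (77.5 and 79.4). PlaB held 146 and 174 CPM of Sesn2, ESC 111 and 109 and DMSO 86.5 and 85.9. Zmat3 was highest in ESC at 327 and 327 CPM and lowest in PlaB at 50.3 and 49.2, with DMSO at 156 and 157 and RA at 154 and 158 overlapping. Dux KD PlaB and SE KO PlaB held 291 and 292 and 245 and 273 CPM of Zmat3.

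**Figure D1:**
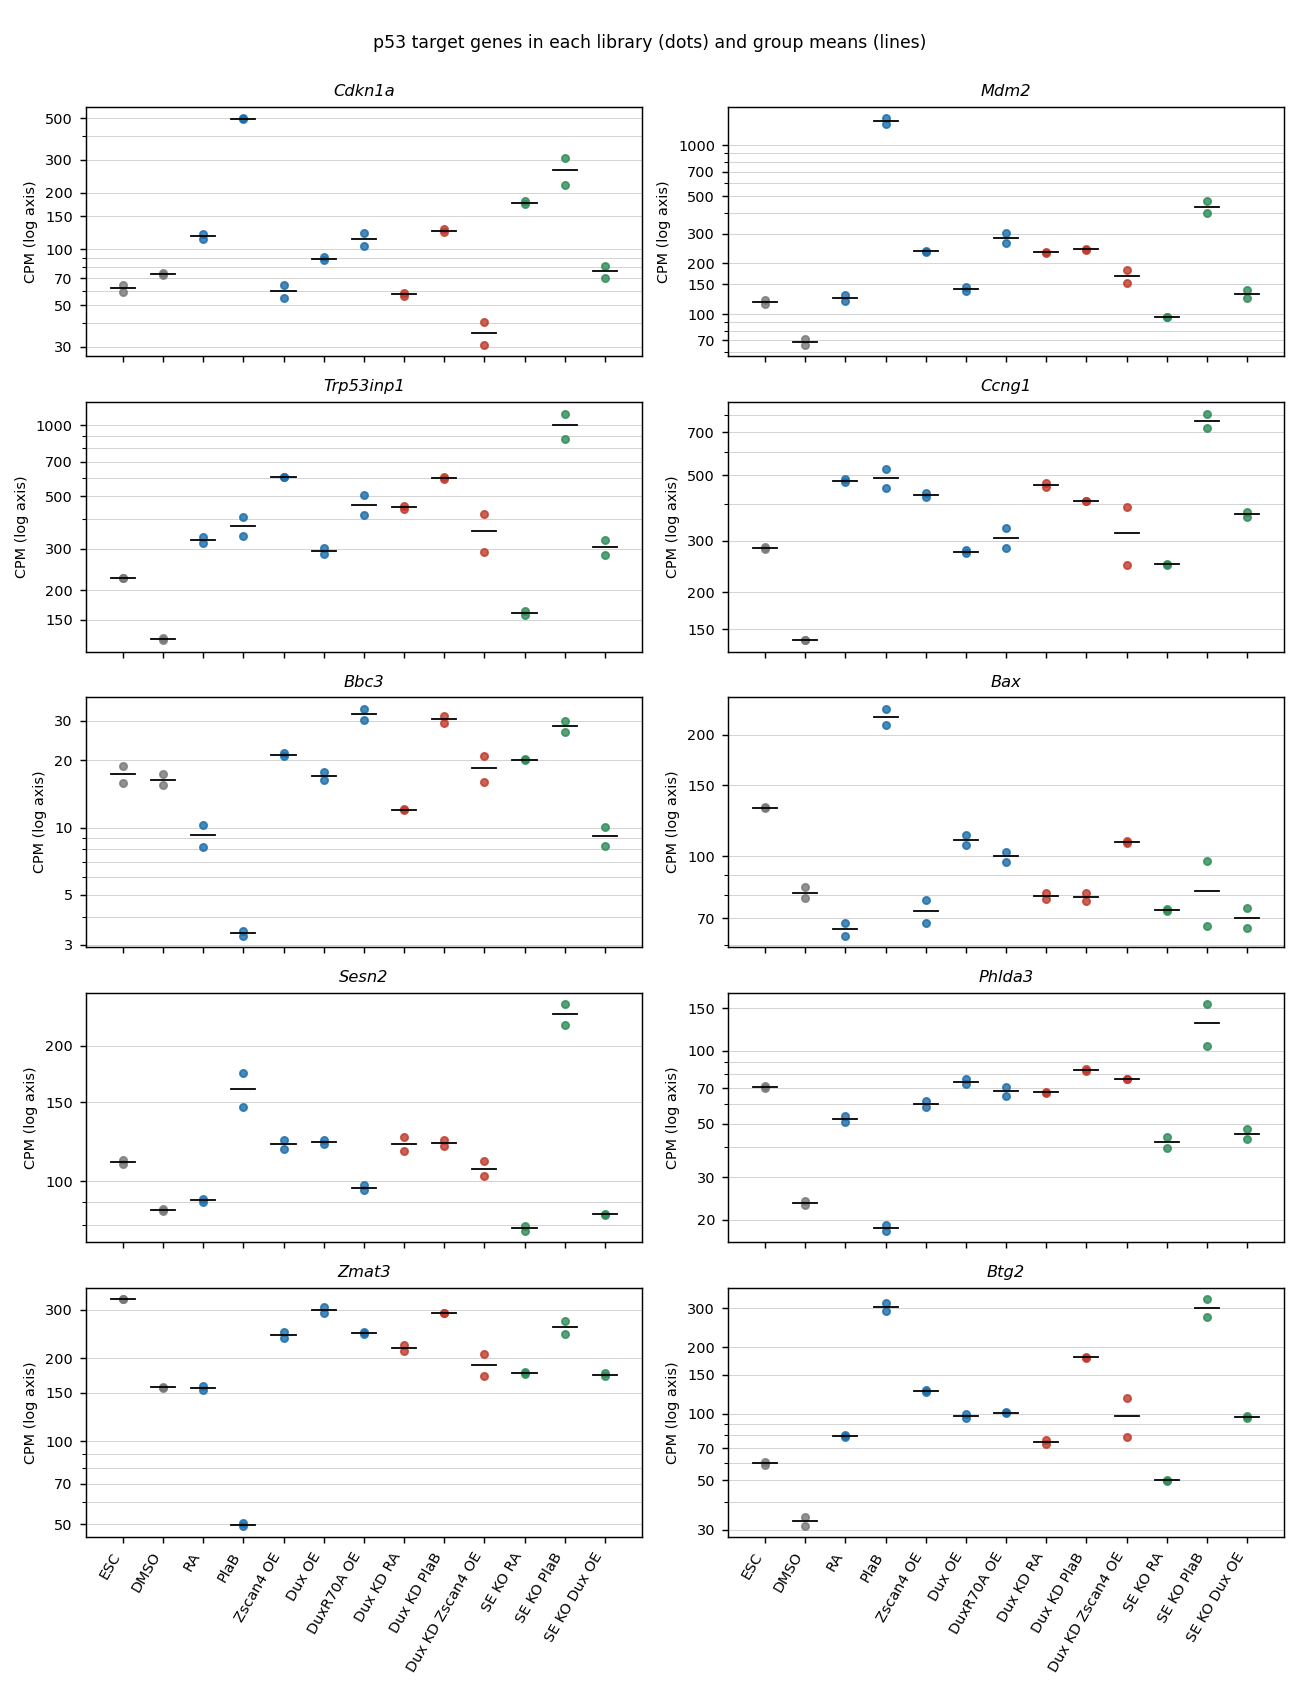
Level of each of the 10 genes in CPM (log axis) in the 13 groups. Each dot is 1 library and each line the mean of 2, with controls in grey, inductions of wild-type cells in blue, Dux KD in red and SE KO in green. PlaB is the highest group for Cdkn1a, Mdm2, Bax and Btg2 and the lowest for Bbc3, Phlda3 and Zmat3, and DMSO is the lowest for Mdm2, Trp53inp1, Ccng1 and Btg2.

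The 2 control groups differed for the members, which matters because RA and PlaB are read against DMSO and the transgenes against ESC. In DMSO against ESC, Phlda3 fell by 1.60 ± 0.12 on the log2 scale (± SE, adjusted p = 7.98e-11), Zmat3 fell by 1.06 ± 0.08 (adjusted p = 3.69e-11) and Ccng1 fell by 1.04 ± 0.12 (adjusted p = 1e-07). These were the 3 of 10 members called, all lower, where a call needs an adjusted p under 0.05 and a log2 fold change of at least 1 in size, and 16.2% of all genes tested were called in this comparison. Mdm2, Trp53inp1, Btg2 and Bax had log2 fold changes of -0.78, -0.87, -0.87 and -0.70, short of that size. Cdkn1a was the only member with a value above 0, 0.25 (adjusted p = 0.107). The median over the members was -0.82, beside -0.035 over all genes. Scaled by library size alone, Zmat3 (-1.06 to -0.99) and Ccng1 (to -0.97) were no longer called.

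PlaB against DMSO asked how the members stood after 4 days of the splicing inhibitor, and it gave the largest change of any member, that of Mdm2. Mdm2 rose 20.4-fold (log2 fold change 4.35 ± 0.10, adjusted p = 6.08e-23), Btg2 9.27-fold (3.21 ± 0.12, adjusted p = 9.5e-19) and Cdkn1a 6.76-fold (2.76 ± 0.13, adjusted p = 3.8e-17). Ccng1, Trp53inp1 and Bax rose by 1.83, 1.60 and 1.45 on the log2 scale. Bbc3 fell by 2.28 ± 0.16 (adjusted p = 7.18e-13) and Zmat3 fell by 1.65 ± 0.08 (adjusted p = 2.58e-16). Thus the pro-apoptotic members Bax and Bbc3 moved in opposite directions.

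In all, 6 members rose and 2 fell in PlaB against DMSO, but 58.9% of all genes tested were called in the same comparison, so a high share of calls is not particular to the members. The median log2 fold change of the members was 1.53, beside 0.22 over all genes, which was 0.38 with RLE scaling and 0.48 with libraries scaled by size alone. Sesn2 (0.89) and Phlda3 (-0.34) were not called, but Sesn2 was called at 1.05 with RLE scaling or DESeq2 and at 1.15 with libraries scaled by size alone. Against ESC in place of DMSO, the log2 fold changes of Trp53inp1, Ccng1 and Bax were 0.73, 0.78 and 0.75 and no longer reached the size for a call, while Phlda3 did at -1.94. The ESC markers moved with this comparison, as 4 of 5 fell, with Sox2 at 592 CPM in DMSO and 26.2 in PlaB, and their part in the members' changes was not tested. Counts over exons do not tell spliced from unspliced transcripts.

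RA against DMSO had 4 of 10 members called, and the largest value was that of Ccng1. Ccng1 rose by 1.80 ± 0.12 on the log2 scale (adjusted p = 1.71e-12), Trp53inp1 by 1.40 ± 0.13 (adjusted p = 4.02e-10), Btg2 by 1.28 ± 0.12 (adjusted p = 6.93e-10) and Phlda3 by 1.16 ± 0.12 (adjusted p = 6.37e-09). None of the 10 was called lower, and 31.0% of all genes tested were called. Mdm2 and Cdkn1a had values of 0.86 and 0.66, Bbc3 of -0.83 and Bax of -0.30, each with an adjusted p under 0.05 but short of the size for a call. Sesn2 (0.07, adjusted p = 0.466) and Zmat3 (-0.01, adjusted p = 0.964) did not pass the test.

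These 4 rises depended on the control. Against ESC, the log2 fold changes of Ccng1, Trp53inp1 and Btg2 in RA were 0.76, 0.54 and 0.41, and that of Phlda3 was -0.44, the opposite direction. Called in RA against ESC were Bax (-1.001) and Zmat3 (-1.07), both lower. Of all genes called in RA against DMSO, 66.5% were higher, and 76.8% when libraries were scaled by size alone.

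Among the transgenes, Dux OE against ESC had 0 of 10 members called, with 9.51% of all genes tested called. By an adjusted p alone 4 members passed, Btg2 (0.71), Cdkn1a (0.52), Trp53inp1 (0.38) and Mdm2 (0.25), all above 0, where 27.5% of all genes did, 5 passed on an unadjusted p under 0.05, and DESeq2 also called 0 at the same size. Against DMSO in place of ESC, 4 members were called higher, Phlda3 (1.67), Btg2 (1.58), Trp53inp1 (1.25) and Mdm2 (1.04), where 18.2% of all genes were called. In the same libraries all 10 genes of a fixed list of 2-cell genes rose, with a median log2 fold change of 7.17 against 0.11 for the members. Ccng1, Bbc3, Bax, Sesn2, Phlda3 and Zmat3 had values between -0.27 and 0.15.

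In DuxR70A OE against ESC, Mdm2 rose by 1.26 ± 0.09 (adjusted p = 3.19e-11) and Trp53inp1 by 1.03 ± 0.13 (adjusted p = 1.75e-07). These were 2 of 10 members, beside 16.9% of all genes. Bbc3 (0.89) and Cdkn1a (0.87) lay below the size for a call. DuxR70A OE was also compared directly with Dux OE, where 13.6% of all genes tested were called. Mdm2 was the 1 member called there, higher in the mutant by 1.005 ± 0.09 on the log2 scale (adjusted p = 1.77e-09), with Bbc3 at 0.92 ± 0.14 (adjusted p = 5.31e-06) and Trp53inp1 at 0.65 ± 0.13. Mdm2 sat on the limit of size, so that its value of 0.9963 with RLE scaling or DESeq2 was no longer called, and without Dux OE replicate 1 or DuxR70A OE replicate 2 it was 0.98 and 0.90. Without DuxR70A OE replicate 2, Trp53inp1 against ESC was 0.89 and not called. Against DMSO, where 9.05% of all genes were called, Btg2 (1.63), Phlda3 (1.54, from -0.06 against ESC) and Ccng1 (1.15) were called in addition. Of all genes called, 60.4% were higher against ESC and 44.8% against Dux OE, and 77.6% and 58.9% with libraries scaled by size alone.

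In Zscan4 OE against ESC, Trp53inp1 rose by 1.43 ± 0.13 (adjusted p = 1.84e-09), Btg2 by 1.08 ± 0.12 (adjusted p = 4.18e-08) and Mdm2 by 1.002 ± 0.09 (adjusted p = 3.49e-09), 3 of 10 members where 11.6% of all genes were called. Mdm2 again sat on the limit of size and was 0.98 without ESC replicate 1 and 0.99 without Zscan4 OE replicate 1, both not called. Against DMSO, where 12.8% of all genes were called, Ccng1 (1.64) and Phlda3 (1.37, from -0.23 against ESC) were called in addition. Bax had a value of -0.85 and Zmat3 of -0.43, and Cdkn1a, at -0.05, overlapped between the groups. Of all genes called, 62.3% were higher, and 76.6% with libraries scaled by size alone.

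**Figure D2:**
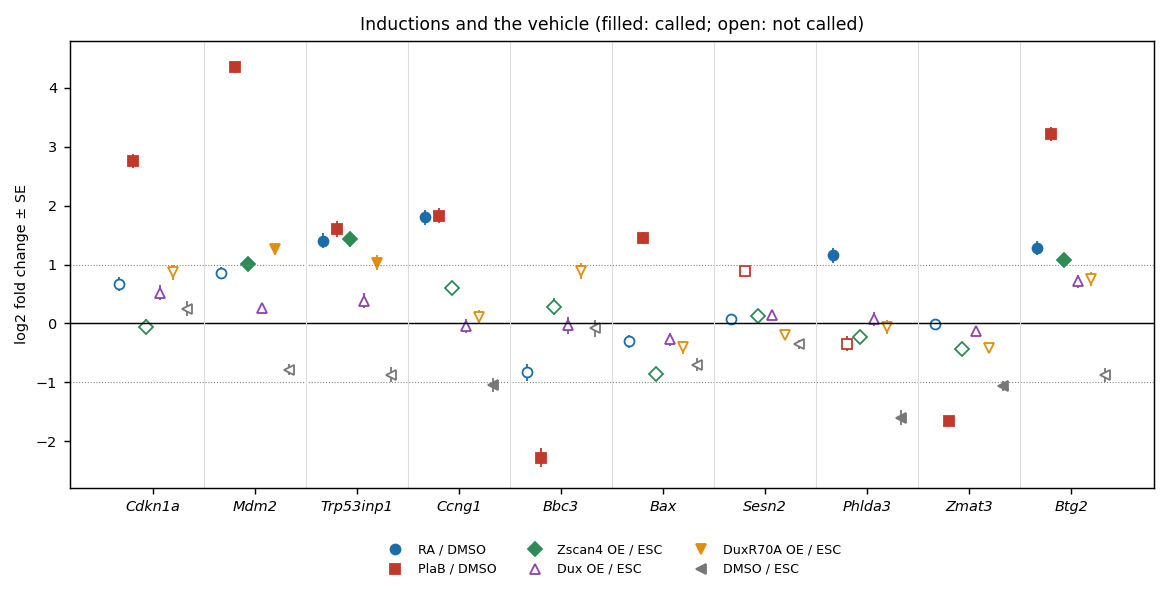
Log2 fold change (± SE) of each gene in the 5 inductions and in the vehicle against ESC, from the fit of all libraries, with filled symbols where a gene was called and dotted lines at 1 and -1. PlaB gives the highest values for Mdm2 (4.35), Btg2 (3.21) and Cdkn1a (2.76), Dux OE has no filled symbol, and the vehicle has values below 0 for 9 of the 10 genes.

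Dux KD was compared with wild-type cells given the same inducer, except that the labels of the Dux KD cells with the Zscan4 transgene name no doxycycline and no time. Under PlaB, Mdm2 fell by 2.53 ± 0.09 (adjusted p = 6.5e-19), Cdkn1a fell by 1.99 ± 0.12 (adjusted p = 2.51e-14) and Bax fell by 1.48 ± 0.11 (adjusted p = 1.84e-12). Bbc3 rose by 3.17 ± 0.16 (adjusted p = 3.6e-16), Zmat3 by 2.55 ± 0.08 (adjusted p = 4.13e-20) and Phlda3 by 2.17 ± 0.12 (adjusted p = 6.98e-15). The 3 members that fell are among the 6 that rose in PlaB against DMSO, and Bbc3 and Zmat3 are those that fell there. Both comparisons use the PlaB libraries, so the opposite signs are not independent of each other. Of all genes tested, 54.9% were called. Trp53inp1 (0.68), Btg2 (-0.76), Sesn2 (-0.40) and Ccng1 (-0.26) were not called.

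Under RA, Cdkn1a was the 1 member called for Dux KD and fell by 1.03 ± 0.12 (adjusted p = 2.69e-07), where 10.9% of all genes tested were called. Mdm2 had a value of 0.90 (adjusted p = 2.18e-08), short of the size for a call. The call of Cdkn1a was lost at -0.96 when libraries were scaled by size alone, and at -0.99 without Dux KD RA replicate 2 and without RA replicate 2. Zscan4c and Zscan4d lay at 0.954 and 1.24 CPM in Dux KD Zscan4 OE. They lay at 101.5 and 118.7 CPM in Zscan4 OE and at 5.93 and 11.05 in ESC. These rows thus showed no Zscan4 overexpression in the Dux KD cells, and the transgene was not checked otherwise. In this setting, where a difference in transgene level, doxycycline or time cannot be told apart from Dux KD, 0 of 10 members were called, where 11.1% of all genes were. There 8 members and 32.6% of all genes passed on an adjusted p alone, among the members them Trp53inp1 (-0.77), Cdkn1a (-0.73) and Bax (0.57), 9 passed on an unadjusted p under 0.05, and DESeq2 called 0. The replicates of Dux KD Zscan4 OE differed up to 1.58-fold over the members, and without replicate 2 Trp53inp1 was called at -1.07.

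The change of the Dux KD effect between PlaB and RA was tested as an interaction. It was called for 5 members, beside 52.2% of all genes tested. The Dux KD effect was lower under PlaB for Mdm2 (-3.43 ± 0.13) and Bax (-1.76 ± 0.16), and higher for Bbc3 (2.79 ± 0.22), Zmat3 (2.07 ± 0.11) and Phlda3 (1.80 ± 0.17). For Mdm2 the effect itself was -2.53 under PlaB and 0.90 under RA. The Dux KD effect on the fixed 2-cell list also differed, with a median of -7.55 under PlaB and -0.37 under RA. Its part in the members' differences was not tested. Cdkn1a had a difference of -0.96 (adjusted p = 1.58e-05), which was called at -1.12 with RLE scaling or DESeq2 and at -1.23 with libraries scaled by size alone.

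SE KO was compared in the same way. Under PlaB, Bbc3 rose by 3.06 ± 0.16 (adjusted p = 6.74e-16), Phlda3 by 2.82 ± 0.12 (adjusted p = 2.39e-17), Zmat3 by 2.38 ± 0.08 (adjusted p = 1.57e-19) and Trp53inp1 by 1.42 ± 0.13 (adjusted p = 8.63e-11). Mdm2 fell by 1.69 ± 0.09 (adjusted p = 2.08e-15) and Bax fell by 1.43 ± 0.11 (adjusted p = 3.17e-12). Together 6 members were called, beside 52.0% of all genes tested. Cdkn1a had a value of -0.92 and was called at -1.05 with RLE scaling, DESeq2 or scaling by library size, and at -1.15 without SE KO PlaB replicate 2. Btg2 (-0.01) overlapped between the groups. With any 1 library of this comparison left out, 6 or 7 members were called.

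Under RA, the SE KO cells differed in 2 members, beside 17.6% of all genes tested, as Bbc3 rose by 1.12 ± 0.14 (adjusted p = 2.41e-07) and Trp53inp1 fell by 1.03 ± 0.13 (adjusted p = 2.13e-07). Ccng1 had a value of -0.94, Btg2 of -0.66 and Cdkn1a of 0.60. Without the library whose genotype label reads WT, 1 member was called and Trp53inp1 had a value of -0.9966, and without RA replicate 1 none was, with Bbc3 at 0.97 and Trp53inp1 at -0.98. Trp53 itself fell in these cells, from 259 and 276 CPM in RA to 88.3 and 78.4 in SE KO RA (log2 fold change -1.68 ± 0.10, adjusted p = 1.81e-13), and its value was -1.77 without the library labelled WT, an alternative chosen after the data were seen. Under Dux OE, 0 of 10 members were called for SE KO, where 6.30% of all genes were. There 6 members and 25.4% of all genes passed on an adjusted p alone, with Bbc3 (-0.89) and Zmat3 (-0.78) lowest, 6 members passed on an unadjusted p under 0.05, and DESeq2 called 0. Without SE KO Dux OE replicate 2, Bbc3 was called at -1.01. Fibroblast markers moved with this comparison, as 4 of 5 rose and their summed level was 115.5 to 116.8 CPM in SE KO Dux OE and 44.5 to 47.3 in Dux OE. Postn lay at 12.9 CPM against 0, Col1a2 at 19.9 against 0.739 and Col3a1 at 3.67 against 0.0365, and their part in the members' values was not tested.

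The SE KO effect differed between PlaB and RA for 8 members, beside 49.0% of all genes tested. It was higher under PlaB for Phlda3 (3.14 ± 0.17), Trp53inp1 (2.44 ± 0.18), Zmat3 (2.20 ± 0.11), Bbc3 (1.94 ± 0.21) and Ccng1 (1.59 ± 0.17), and lower for Bax (-1.59 ± 0.15), Cdkn1a (-1.52 ± 0.17) and Mdm2 (-1.31 ± 0.13). Trp53inp1 had an effect of 1.42 under PlaB and of -1.03 under RA, and Trp53 one of 0.61 and -1.68. Without the library labelled WT, 8 members were called again, 5 higher and 3 lower, with Phlda3 at 3.24, Trp53inp1 at 2.44, Mdm2 at -1.30 and Trp53 at 2.41.

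**Figure D3:**
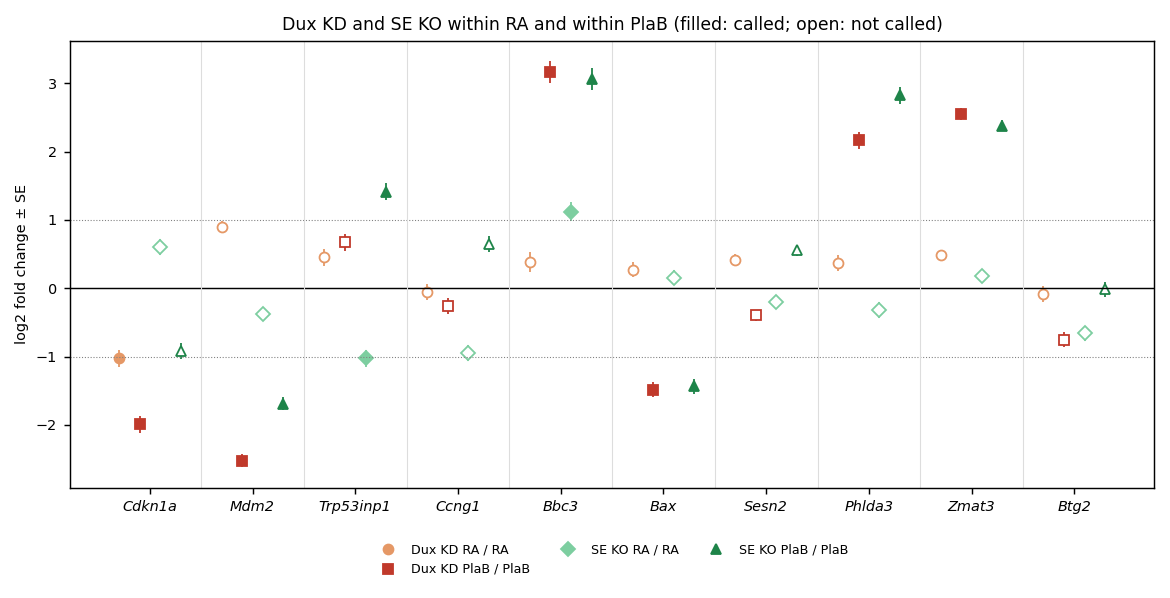
Log2 fold change (± SE) of each gene for Dux KD and SE KO against wild-type cells under the same induction, RA or PlaB, with filled symbols where a gene was called and dotted lines at 1 and -1. Under PlaB, Bbc3, Phlda3 and Zmat3 lie above 2 and Mdm2 and Bax below -1 in both lines, and under RA the values lie between -1.03 and 1.12.

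Set against DMSO, the PlaB-treated Dux KD and SE KO cells had members called higher and none called lower. In Dux KD PlaB, Btg2 rose by 2.46 ± 0.12, Trp53inp1 by 2.28 ± 0.13, Phlda3 by 1.83 ± 0.12, Mdm2 by 1.82 ± 0.10 and Ccng1 by 1.57 ± 0.12, 5 of 10 members where 11.7% of all genes tested were called. In SE KO PlaB these genes rose too, Btg2 by 3.20, Trp53inp1 by 3.02, Mdm2 by 2.66, Phlda3 by 2.48 and Ccng1 by 2.48, with Cdkn1a (1.84 ± 0.12, adjusted p = 9.99e-13) and Sesn2 (1.45 ± 0.08, adjusted p = 2.92e-14) in addition, 7 of 10 where 28.1% of all genes were called. The median over the members was 1.24 in Dux KD PlaB and 2.16 in SE KO PlaB, beside 0.005 and 0.1 over all genes.

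The 3 PlaB groups share the DMSO libraries, so their values are given side by side. Bax, at 1.45 in wild-type cells, had values of -0.03 in Dux KD and 0.02 in SE KO and overlapped DMSO in both. Bbc3, at -2.28 in wild-type cells, had values of 0.89 and 0.79, and Zmat3, at -1.65, of 0.90 and 0.73, all 4 short of a call. Against ESC, Phlda3 was no longer called in either line (0.23 in Dux KD and 0.88 in SE KO), Ccng1 was not called in Dux KD (0.53), and Cdkn1a was called in Dux KD (1.02). Zmat3 turned below 0 against ESC, at -0.16 in Dux KD and -0.33 in SE KO, as did Bax in SE KO at -0.69. With no cells infected with another shRNA among the libraries analysed here, the infected line and the loss of Dux cannot be told apart.

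**Figure D4:**
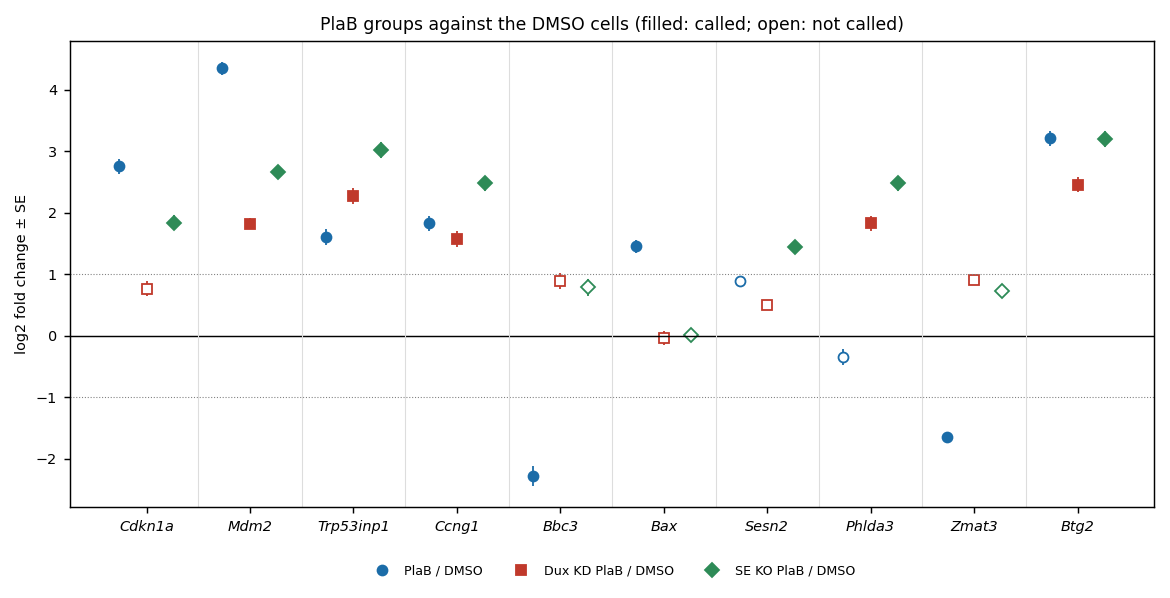
Log2 fold change (± SE) of each gene against DMSO in PlaB-treated wild-type, Dux KD and SE KO cells, with filled symbols where a gene was called and dotted lines at 1 and -1. Mdm2, Trp53inp1, Ccng1 and Btg2 are called higher in all 3 groups, whereas Bax is called only in wild-type cells, and Bbc3 and Zmat3 are called lower there and lie above 0 in the other groups.

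Trp53, the gene of p53, was highest in ESC at 664 and 667 CPM. It lay at 357 and 379 CPM in DMSO, 359 and 348 in PlaB and 259 and 276 in RA, and was lowest in SE KO RA. It was not called in PlaB against DMSO (-0.06 ± 0.09, adjusted p = 0.582), the comparison with the largest change of a member, nor in RA against DMSO (-0.46) or DMSO against ESC (-0.86). Mdm4, the Mdm2 relative that holds p53 inactive, was highest in DuxR70A OE at 549.7 and 641 CPM and lay at 368 and 362 in DMSO, 258 and 291 in PlaB and 221 and 206 in RA, with no call in any of the 17 tests. Protein was not measured, and RNA of Trp53 does not give the activity of p53.

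The other genes of the pathway were read from fixed lists. Of 26 further p53 targets tested, 8 rose and 1 fell in PlaB against DMSO, where 58.9% of all genes were called, with a median of 0.037, which lay below that of all genes (0.22). Plk2, a polo-like kinase, rose from 6.92 and 9.16 CPM to 363 and 373 (5.51 ± 0.15, adjusted p = 1.38e-21), Fas, a death receptor, from 0.113 and 0.384 to 5.76 and 7.44 (4.69 ± 0.42) and the ribosomal protein gene Rps27l from 136 and 128 to 740.2 and 675 (2.42 ± 0.11). In RA against DMSO, where 31.0% of all genes were called, 7 rose and 2 fell, among them Plk2 (2.86) and Fas (2.33) higher and the cytokine gene Gdf15 lower (-2.27). In SE KO PlaB against DMSO 15 rose and 2 fell with a median of 1.19, beside 28.1% of all genes called. In Dux KD PlaB against DMSO 7 were called higher and none lower, beside 11.7%. Dux OE against ESC had 2 called, Plk2 and Fas, both higher, beside 9.51%, and DESeq2 called 1, beside 8.62%. Fas lay at 0.775 CPM in Dux OE and 0.254 in ESC, the latter close to 3 counts. In Dux KD PlaB against PlaB 5 rose and 5 fell, beside 54.9%, with Plk2 (-2.37) and Fas (-2.88) among those that fell.

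**Figure D5:**
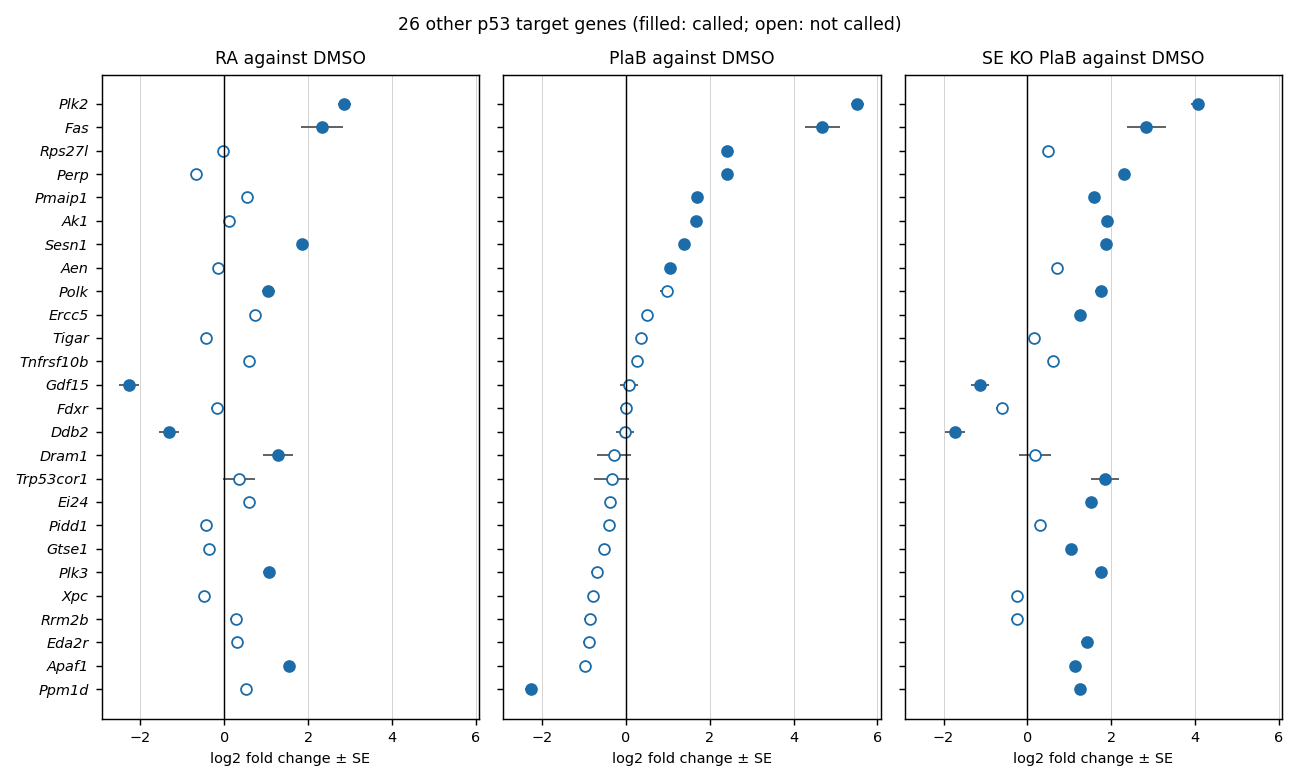
Log2 fold change (± SE) of the 26 further p53 targets against DMSO in RA, in PlaB and in SE KO cells with PlaB, sorted by the PlaB values, with filled symbols where a gene was called. Plk2 and Fas lie at the upper end in all 3 panels, and most other genes of the PlaB panel are not called.

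Of 15 genes that act on p53 or belong to its family, 1 rose and 3 fell in PlaB against DMSO, beside 58.9% of all genes called. The ubiquitin ligase gene Cop1 fell (-2.73), as did the deubiquitinase gene Usp7 (-1.35) and the kinase gene Atm (-1.23). In RA 2 rose and 1 fell, beside 31.0%. Cdkn2a, whose Arf product binds Mdm2, rose from 1.47 to 10.97 CPM (2.89), the checkpoint kinase gene Chek1 fell (-1.76), and Trp63 was called at 0.249 CPM against 0 in DMSO, at which depth no fold is given.

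Of 13 cell cycle genes that p53 is known to repress through p21, 3 rose and 4 fell in PlaB against DMSO, beside 58.9% of all genes called, with Mki67 (-3.72), Foxm1 (-3.43) and Bub1 (-1.56) lowest. In RA none rose and 4 fell, beside 31.0% of all genes called, among them Bub1 (-1.65), Aurka (-1.26) and Mki67 (-1.23). Of 10 genes of the integrated stress response, which also acts on Sesn2, 3 rose and 4 fell in PlaB, with Chac1 (-2.66), Vldlr (-2.50) and Ddit4 (-2.30) lowest. In RA none was called higher and 5 were called lower, with Chac1 (-3.65), Trib3 (-2.73) and Atf4 (-2.06) lowest. The shares over all genes are the same for this list. In DMSO against ESC 7 of these 10 rose, beside 16.2% of all genes called, while Sesn2 had a value of -0.36.

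All 10 genes of the fixed 2-cell list, several of which have near-identical copies that share reads, rose in PlaB and in RA against DMSO. Of all genes tested, 58.9% and 31.0% were called there. Zscan4d lay at 1.82 CPM in DMSO, 261 in RA and 4318 in PlaB, and Zscan4c at 2598 in PlaB against 1.54. Usp17le reached 111 CPM in RA against 0.535, and Zfp352, with 0 in DMSO, 1.45 in RA and 4.74 in PlaB. In Dux KD PlaB against DMSO 0 of the 10 were called by edgeR, beside 11.7% of all genes. There 1 of the 10 had an unadjusted p under 0.05 and DESeq2 called 1. In the same comparison 5 of the 10 members were called, and whether the 2 lists differ was not tested.

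Among the markers of cell types, Sox2, Esrrb and Nanog fell in PlaB against DMSO (-4.50, -3.65 and -3.62), while Zfp42 lay above DMSO there at 0.40, and Zfp42, Pou5f1 and Sox2 in RA (-1.48, -1.46 and -1.18). The primitive endoderm markers Dab2, Gata6 and Sox17 rose in RA (4.34, 4.02 and 3.12) and in PlaB (2.54, 1.79 and 4.06), while the fourth of the list, Gata4, had a value of -0.29 in PlaB. Of the fibroblast markers, Col1a2 lay at 15.1 CPM in RA, 1.25 in PlaB and 0.0567 in DMSO, which is under 3 counts, Col1a1 rose in RA (1.63), Thy1 fell in PlaB (-2.27) and Col3a1 was at 0.204 in PlaB and 0 in DMSO. Of the trophectoderm markers, Eomes (-1.52) and Tfap2c (-1.32) fell in PlaB and Cdx2 was at 0.579 CPM there against 0.0274, and of the neural markers Sox1 (-4.77) and Nes (-3.35) fell in PlaB. These lists moved with RA and PlaB, which had more members called than the transgene inductions. The ESC markers also moved between the PlaB groups. Against wild-type cells under PlaB, 4 of 5 rose in Dux KD (median log2 fold change 3.03), beside 54.9% of all genes called. In SE KO 4 of 5 rose too (median 3.11), beside 52.0%. The part of these lists in the members' changes was not tested.

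Across the 13 group means of log2 CPM, the members did not form 1 pattern. Pearson r was highest for Mdm2 with Btg2 (0.881), Trp53inp1 with Ccng1 (0.859), Bbc3 with Zmat3 (0.834) and Phlda3 with Zmat3 (0.821). It was lowest for Cdkn1a with Zmat3 (-0.549) and Mdm2 with Zmat3 (-0.49). Outside all lists, the genes most like Cdkn1a among 12585 genes were Pik3ip1 (0.922), Zc2hc1c (0.909), Dcaf4 (0.902), Hacd3 (0.888) and Crip1 (0.887). These values are descriptions over 13 points that share libraries and scaling.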

How the data were processed

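R1 ESCs were analysed by bulk RNA-seq, with 26 libraries assigned to 13 groups of 2 by their sample titles. The authors deposited whole-number read counts per gene for 55291 genes, without normalization and with the exons and exon length of each gene. Per the labels, libraries were made with the NEBNext Ultra II kit after poly(A) selection, and the submitters' processing notes name FastQC, Trimmomatic, STAR, featureCounts, DESeq2 and the mm10 genome. The annotation, strand setting and handling of multi-mapping reads are not given in the sources used here, so overlapping genes and near-identical copies remain uncertain.

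A single edgeR model (4.0.16, R 4.3.3) was fitted to the deposited counts of every library after filterByExpr at its defaults, which kept 20953 genes, and TMM scaling. Contrasts were tested by quasi-likelihood, with fold changes shrunk by a prior count of 0.125. P-values were adjusted over all genes tested by the Benjamini-Hochberg method, and a call needed an adjusted p under 0.05 together with a change of at least 1 in either direction on the log2 scale. The SE of a log2 fold change is its size divided by the square root of F. CPM and RPKM use TMM-scaled library sizes. With 2 libraries a group, the spread is estimated largely from other groups and genes. Differences between effects under PlaB and RA were tested as interaction contrasts. The code was checked on simulated counts.

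The members and gene lists were chosen with earlier results of these data known. Named in the text are the 10 members, Trp53, Mdm4 and Duxf3, from each list the 3 called genes with the largest absolute log2 fold change in PlaB and in RA against DMSO, and the 5 genes most like Cdkn1a. Postn and Gata4 are named outside this rule, and so are the fibroblast marker values of SE KO Dux OE. Alternatives were RLE scaling, scaling by library size, no filter, DESeq2 1.42.0, fits of only the groups compared, the replicate number as a block, an adjusted p alone, the other control, and leaving out each library. Promoter sequences are from RefSeq (GRCm38.p6).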

Additional observations from a re-analysis of the deposited data

Results flagged for a closer look

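For 5 members the effect of Dux KD differed between PlaB and RA in the interaction test of edgeR (Benjamini-Hochberg adjusted p in brackets, log2 scale, PlaB effect minus RA effect). The differences were -3.43 for Mdm2 (2.83e-18), 2.79 for Bbc3 (8e-12), 2.07 for Zmat3 (4e-15), 1.80 for Phlda3 (3.2e-10) and -1.76 for Bax (1.05e-10). The same test called 52.2% of all genes tested, so a count of 5 is not particular to the members. Mdm2 had effects of opposite sign, lower than wild type in both Dux KD libraries under PlaB and higher in both under RA. Bax did too, but its value of 0.27 under RA did not pass the test (adjusted p = 0.0523). Mean Duxf3 was 0.636 CPM in Dux KD RA against 2.45 in RA, and 0.0295 in Dux KD PlaB against 8.73 in PlaB. For Dux KD, the fixed 2-cell list had a median log2 fold change of -0.37 under RA and -7.55 under PlaB. The part of these in the members' differences was not tested.

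For 8 members the effect of SE KO differed between PlaB and RA by the same test. The differences were 3.14 for Phlda3 (3.42e-15), 2.44 for Trp53inp1 (2.13e-12), 2.20 for Zmat3 (1.1e-15), 1.94 for Bbc3 (6.44e-09), 1.59 for Ccng1 (3.98e-09), -1.59 for Bax (6.68e-10), -1.52 for Cdkn1a (5.92e-09) and -1.31 for Mdm2 (7.53e-10). For Phlda3, Trp53inp1 and Ccng1 all libraries of SE KO were above wild type under PlaB and below it under RA, including the SE KO RA library whose genotype label reads WT. Without that library the same test called 8 members too, with Phlda3 at 3.24, Trp53inp1 at 2.44 and Ccng1 at 1.62. Of all genes tested, 52.2% were called for Dux KD and 49.0% for SE KO by the same test. The wild-type groups under the 2 inductions are part of each difference, and inductions differ in agent, dose and time, so these cannot be told apart.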

How the results depend on the processing

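Of 202 recomputed counts of members called, 169 stayed within 1.5 times the count given, and of 1850 recomputed log2 fold changes of single members, 1790 kept their side of the call, 31 became called, 26 were no longer called and 3 turned sign with a call on one side. These 3 were Phlda3 with the other control, at -0.44 for RA against ESC, 1.37 for Zscan4 OE against DMSO and 1.54 for DuxR70A OE against DMSO. Sign also turned in 47 of the values called under neither setting, 12 of them with the other control, where Zmat3 went from -0.43 to 0.63 in Zscan4 OE, from -0.13 to 0.94 in Dux OE and from -0.41 to 0.65 in DuxR70A OE, and 35 under other settings, all within 0.277 of 0. With the other control, the members called numbered 2 for RA (30.1% of all genes called), 5 for Zscan4 OE (12.8%), 4 for Dux OE (18.2%) and 5 for DuxR70A OE (9.05%). With an adjusted p alone they numbered 8 for RA (58.9% of all genes), 6 for Zscan4 OE (38.6%), 4 for Dux OE (27.5%), 7 for DuxR70A OE against ESC (44.7%) and 6 against Dux OE (38.7%), 8 for DMSO against ESC (43.6%), 7 for Dux KD RA (37.3%), 8 for Dux KD Zscan4 OE (32.6%), 9 for Dux KD PlaB against DMSO (34.7%), 8 for SE KO RA (46.0%), 6 for SE KO Dux OE (25.4%) and 8 for the difference of Dux KD effects (65.9%). DuxR70A OE against Dux OE had 0 called with RLE scaling or DESeq2. With libraries scaled by size alone there were 4 called for DuxR70A OE against ESC, 2 against Dux OE, 1 for DMSO against ESC and 0 for Dux KD RA, and with no filter 1 for SE KO RA. Leaving out 1 library at a time gave 0 to 2 members called for DuxR70A OE against Dux OE, 1 to 3 for DuxR70A OE against ESC, 0 to 1 for Dux KD RA, 0 to 1 for Dux KD Zscan4 OE, 0 to 2 for SE KO RA and 0 to 1 for SE KO Dux OE. The cause of these changes was not tested beyond the settings themselves. With the replicate number as a replicate block, every comparison kept its count of members called (8 in PlaB and 4 in RA against DMSO), and as same-numbered libraries did not deviate together (r from -0.0473 to 0.0237), they share only a number. Scaling by size alone moved the median log2 fold change of all genes from 0.10 to 0.30 in RA, from 0.22 to 0.48 in PlaB, from 0 to 0.15 in Zscan4 OE, from 0 to 0.20 in DuxR70A OE against ESC and from -0.14 to -0.33 in Dux KD PlaB against PlaB. Depth limited no member, as the lowest held 3.29 CPM, but it limits Duxf3 and list genes near 3 counts.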
